A study of Drosophila melanogaster with 8 samples.

Results

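The genes described here are immune effectors of the fly, antimicrobial peptides and a secreted antiviral factor, together with GNBP3, a protein that recognises fungal glucans. They were taken from a list of 8 symbols, AttD, AttC, CecB, Mtk, Drs, Dro, GNBP3 and Vago, and each was read from a probe set that carries its symbol alone, which would be selected on the highest mean over the 8 arrays where a gene had several. The symbols were chosen by function and with the measured knockdown values of GNBP3 and AttD already known. Of these, 6 had such a probe set, 1 each, among 11982 genes named in this way, and AttC and Dro were not analysed here. All 6 were kept by a filter that retained the brightest 60% of features, 10262 of 17104. The lowest of their group means, 2.18 on the log2 scale, was above the lowest mean that the filter kept (2.12).

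Most antimicrobial peptides of Drosophila are short effectors that are released into the haemolymph, mainly by the fat body and by blood cells, and act on the envelopes of bacteria and fungi. Their genes are controlled by NF-kappaB factors, Relish in the IMD pathway and Dorsal and Dif in the Toll pathway. GNBP3 acts upstream of Toll, where it senses beta-glucans of fungal cell walls and starts a protease cascade that leads to the ligand Spätzle. Vago is induced by viral infection through Dicer-2.

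The cells were S2, a Drosophila melanogaster line made from late embryos and resembling blood cells. They are labelled wild type and were treated with double-stranded RNA (dsRNA) in every group, so that the controls also carry dsRNA. The 4 groups of 2 arrays each were ribosome-bound RNA of cells given DENR dsRNA, ribosome-bound RNA of cells given GFP dsRNA, total RNA of cells given DENR dsRNA and total RNA of cells given GFP dsRNA. The ribosome-bound RNA, called translated in the labels, came from the single-ribosome and polysome peaks of a gradient, and GFP dsRNA has no target in the fly. DENR, with its partner MCTS1, helps ribosomes to re-initiate after short upstream open reading frames. The dose and duration of the treatment were not given in the sources used here.

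Values are log2 array signals made by the authors with RMA, and array medians ran from 2.32 to 2.48. The DENR probe set read 5.40 and 4.46 in translated RNA of DENR dsRNA cells, against 8.41 and 8.26 in GFP dsRNA cells. In total RNA it read 7.38 and 7.60 in DENR dsRNA cells, against 8.28 and 8.18 in GFP dsRNA cells. The log2 difference was -3.40 in translated RNA (adjusted p = 0.000203 by limma, described below). In total RNA it was -0.74 and did not pass the same test (adjusted p = 0.170 by limma). The first total RNA array of DENR dsRNA cells stood apart on the first principal component (65.8% of the variance). It scored -9.0, against -27.3 for its mate, -29.6 and -35.1 for the control total RNA arrays and 22.3 to 29.4 for the translated arrays. Of 11 plasmatocyte markers, 10 lay above the background level defined next in every group, whereas 3 of 4 fat body markers, 3 of 4 gut markers and both muscle markers lay at or below it in every group. Of the other lists, 3 of 5 lamellocyte and crystal cell markers, 1 of 4 neuron markers and 1 of 4 germline markers lay above it in every group. In bulk RNA, fewer cells of a type and less RNA per cell cannot be told apart.

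No detection calls were used, so background was judged from genes not expected to be active in these cells. The 165 genes of odorant, gustatory and ionotropic receptors on the array had median levels of 1.77 to 1.86 in the 4 groups and 95th percentiles of 3.06 to 3.29, and this percentile is called the receptor level here. CecB, Mtk, Drs and Vago lay above it in all 4 groups. GNBP3 and AttD lay above it in both DENR dsRNA groups and below it in both GFP dsRNA groups. Differences of these genes from GFP dsRNA cells are therefore measured from a level at which other genes are taken to be silent.

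**Figure D1:**
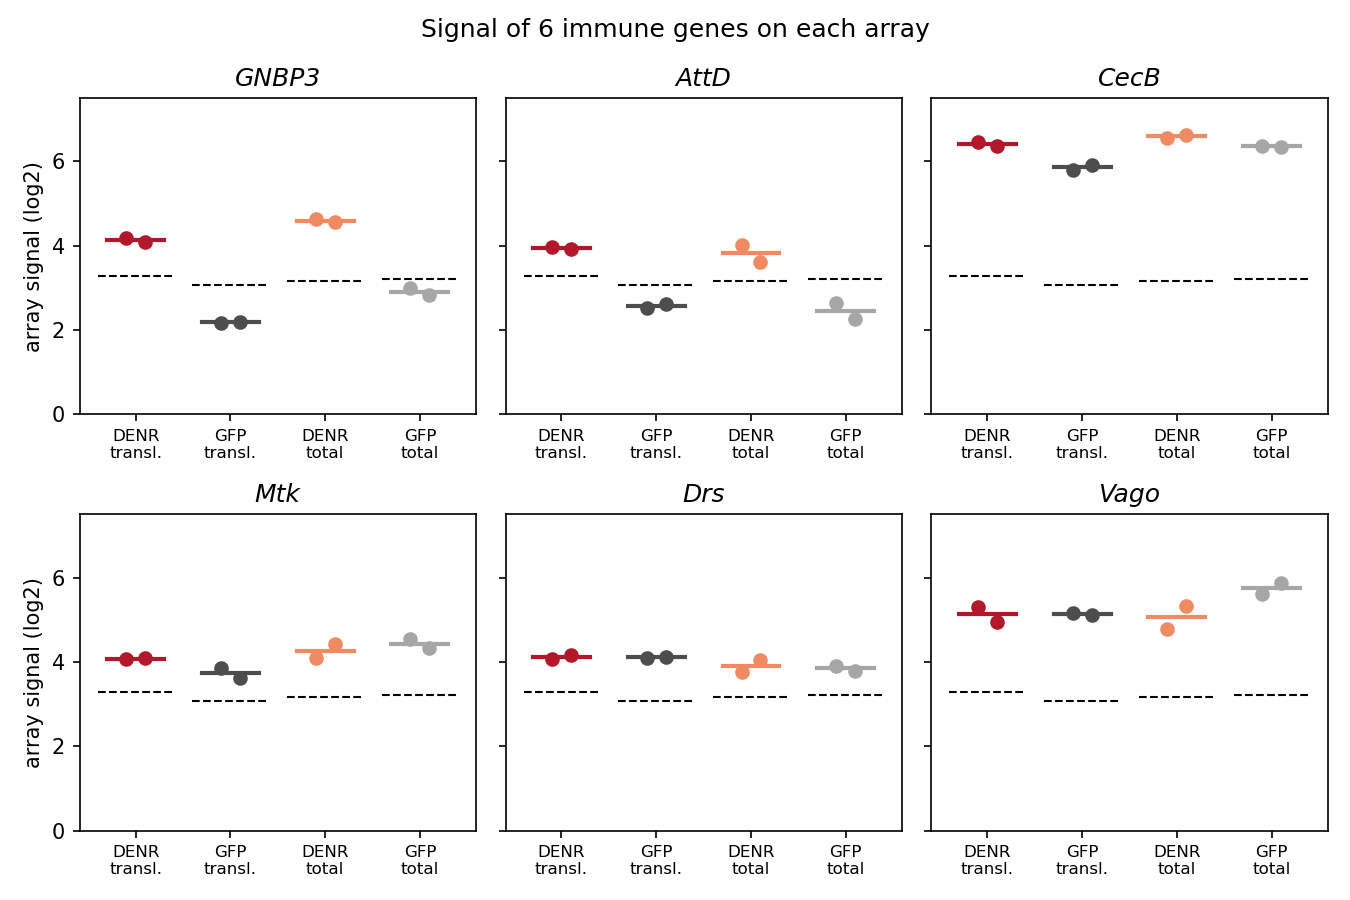
Array signal (log2) of 6 immune genes in translated and total RNA of cells given DENR or GFP dsRNA. Points are arrays (2 per group), solid bars are group means and dashed bars the 95th percentile of 165 chemosensory receptor genes in that group. GNBP3 and AttD lie above the dashed level in DENR dsRNA cells and below it in GFP dsRNA cells, and the other 4 genes stay above it.

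The comparison of DENR with GFP dsRNA asked which of these transcripts changed on DENR knockdown, in total RNA and on ribosomes. GNBP3 and AttD were higher in both fractions, by 3.89-fold in translated and 3.21-fold in total RNA for GNBP3 and by 2.6-fold and 2.59-fold for AttD. The control signals of both genes were near background, and how far this alters the folds was not tested. The secreted peptides CecB, Mtk and Drs and the antiviral factor Vago did not pass the test in either fraction. The rise of GNBP3 and AttD was known when the list was drawn up, so their knockdown values are given as a description, without a p-value. For the other 4 genes, adjusted p-values are from limma, with Benjamini-Hochberg adjustment over all 10262 features. Errors after the sign ± are moderated standard errors (SE, n = 2 arrays per group). With 2 arrays against 2, an exact permutation test of a single gene cannot go below a two-sided p of 0.333.

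GNBP3, the glucan receptor, read 4.18 and 4.09 in translated RNA of DENR dsRNA cells, against 2.17 and 2.18 in GFP dsRNA cells. In total RNA it read 4.63 and 4.56 in DENR dsRNA cells, against 3.0 and 2.82 in GFP dsRNA cells. All 4 DENR dsRNA arrays were higher than all 4 control arrays, and arrays of a group lay within 0.18 of each other. The log2 difference was 1.96 ± 0.13 in translated RNA and 1.68 ± 0.13 in total RNA. The means of DENR dsRNA cells exceeded the receptor level of their controls by 1.08 in translated RNA and 1.39 in total RNA on the log2 scale. Of the 165 receptor genes, 39 read at least as high as GNBP3 in translated RNA of GFP dsRNA cells, and 4 did in DENR dsRNA cells at the level it had there. In total RNA these counts were 11 and 3. Its 4 groups ranked total RNA of DENR dsRNA cells first, then translated RNA of the same cells, then total and translated RNA of GFP dsRNA cells, and no neighbouring groups overlapped.

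AttD codes for an attacin, a member of a glycine-rich family of peptides active against Gram-negative bacteria. It read 3.96 and 3.92 in translated RNA of DENR dsRNA cells, against 2.51 and 2.62 in GFP dsRNA cells. In total RNA the signals were 4.01 and 3.62 in DENR dsRNA cells, against 2.63 and 2.25 in GFP dsRNA cells. Again every DENR dsRNA array was above every control array, while both fractions of a treatment overlapped. The log2 difference was 1.38 ± 0.17 in translated RNA and 1.38 ± 0.17 in total RNA, and the DENR dsRNA means lay 0.88 and 0.61 above the control receptor level in that order. Receptor genes that read at least as high as AttD numbered 18 in translated and 26 in total RNA of GFP dsRNA cells. They numbered 5 and 6 in DENR dsRNA cells. Leaving out any 1 of the 4 translated arrays ended the call of AttD in translated RNA, with differences of 1.32 to 1.43. Without the first total RNA array of DENR dsRNA cells, which stood apart, the differences in total RNA were 1.18 ± 0.19 for AttD and 1.64 ± 0.17 for GNBP3.

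CecB, a cecropin that forms pores in bacterial membranes, read 6.45 and 6.37 in translated RNA of DENR dsRNA cells, against 5.79 and 5.92 in GFP dsRNA cells. In total RNA it read 6.56 and 6.63 in DENR dsRNA cells, against 6.37 and 6.34 in GFP dsRNA cells. The arrays did not overlap in either fraction. The log2 difference of 0.55 ± 0.13 in translated RNA missed the threshold of 0.05 by limma (adjusted p = 0.0700, and 0.0313 to 0.451 over the alternatives). A fit of the arrays compared alone put it past the threshold (adjusted p = 0.0432). In total RNA the difference was 0.24 ± 0.13 (adjusted p = 0.356 by limma). Cecropin genes are near-identical copies, so other cecropin transcripts may add to this signal, which was not tested.

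Mtk codes for metchnikowin, a proline-rich peptide active against fungi and bacteria. In translated RNA it read 4.06 and 4.09 in DENR dsRNA cells, against 3.85 and 3.61 in GFP dsRNA cells. In total RNA it read 4.08 and 4.42 in DENR dsRNA cells, against 4.53 and 4.32 in GFP dsRNA cells. The translated arrays were apart and the total RNA arrays overlapped. The differences, 0.34 ± 0.16 and -0.18 ± 0.16, had adjusted p = 0.404 and 0.590 by limma. Without the total RNA array that stood apart, the difference in total RNA was 0.00 ± 0.18.

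Drs, the gene of the antifungal peptide drosomycin and a widely used readout of Toll, was the steadiest of the 6, with group means that spanned 0.26. It read 4.06 and 4.16 in translated RNA of DENR dsRNA cells, against 4.10 and 4.12 in GFP dsRNA cells. In total RNA it read 3.77 and 4.05 in DENR dsRNA cells, against 3.91 and 3.79 in GFP dsRNA cells. The treatments overlapped in both fractions. The log2 difference was 0.00 in translated RNA, with a 95% interval of -0.32 to 0.31, and 0.06 in total RNA, with an interval of -0.26 to 0.38.

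Vago, the secreted antiviral factor, read 4.79 and 5.33 in total RNA of DENR dsRNA cells, against 5.60 and 5.88 in GFP dsRNA cells. In translated RNA it read 5.31 and 4.95 in DENR dsRNA cells, against 5.17 and 5.12 in GFP dsRNA cells. Total RNA arrays of the treatments were apart, translated arrays overlapped, and the arrays of total RNA from DENR dsRNA cells differed by 0.54. The difference in total RNA of -0.68 ± 0.20 did not pass the limma test (adjusted p = 0.123), and that in translated RNA was -0.01 ± 0.20 (adjusted p = 0.991). The value in total RNA rested on single arrays. It was -0.41 ± 0.20 without the first total RNA array of DENR dsRNA cells (adjusted p = 0.551 by limma) and -0.95 ± 0.20 without the second (adjusted p = 0.0307 by limma).

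Across the 6 genes, 2 rose and 4 did not pass in each fraction. The fit called 1.34% of all features in translated RNA, 0.653% higher and 0.692% lower, and 1.58% in total RNA, 0.877% higher and 0.702% lower. As the list was drawn up with GNBP3 and AttD known to be called, nothing is read from that share. Among the other 4 genes, arrays of the treatments did not overlap for 2 in translated RNA (CecB and Mtk) and 2 in total RNA (CecB and Vago), near the 47.1% and 46.0% of all features. The median difference of these 4 genes was 0.17 in translated RNA and -0.06 in total RNA, against 0.00 and 0.02 for all features. The summed linear signal of the 11 plasmatocyte markers was 2974 to 2979 in translated RNA of DENR dsRNA cells, against 4660 to 4931 in GFP dsRNA cells. In total RNA it was 3864 to 4277 in DENR dsRNA cells, against 4233 to 5140 in GFP dsRNA cells. In each fraction, 4 of these 11 markers were called lower and 0 higher on knockdown by limma. Of all features, 0.692% were called lower in translated and 0.702% in total RNA. The median difference of the 11 markers was -0.67 in translated and -0.48 in total RNA, and their part in these results was not tested. The 4 fat body markers summed to 28.7 to 29.6 in translated RNA of DENR dsRNA cells, against 28.5 to 29.6 in GFP dsRNA cells, and to 21.2 to 23.4 against 22.5 to 25.1 in total RNA. Also in total RNA, the 4 germline markers summed to 340 to 366 in DENR dsRNA cells, against 239 to 286 in GFP dsRNA cells, without overlap. In translated RNA the germline sums overlapped, at 287 to 328 against 280 to 334. Of the 4 germline markers, 3 lay at or below the receptor level in every group. The 5 lamellocyte and crystal cell markers summed to 249 to 279 in total RNA of DENR dsRNA cells, against 352 to 367 in GFP dsRNA cells. In translated RNA they summed to 213 to 240 against 255 to 262, and the treatments did not overlap in either fraction. The part of these markers in the results was not tested.

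**Figure D2:**
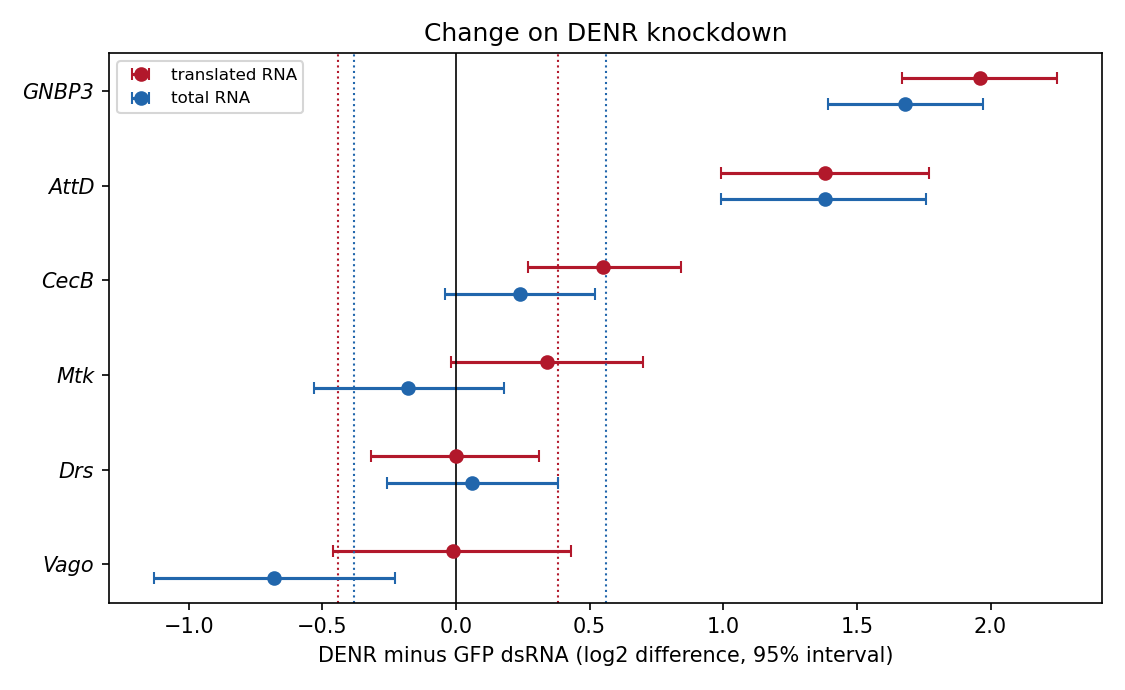
Log2 difference, DENR minus GFP dsRNA, in translated and total RNA for 6 immune genes, with 95% intervals from the limma fit. Dotted lines mark the 5th and 95th percentiles of all 10262 features in the same colour. GNBP3 and AttD, known to rise when the list was drawn up, lie to the right of these lines in both fractions (1.38 to 1.96). CecB in translated RNA (0.55) and Vago in total RNA (-0.68) also lie outside them, with intervals that exclude 0, but did not pass the test. The intervals of Drs and Mtk include 0 in both fractions.

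The difference of these differences, the change in translated RNA beyond that in total RNA, asked whether the loading of these transcripts on ribosomes changed with DENR. None of the 6 genes passed the limma test. For GNBP3 and AttD this is a description, because their knockdown values were known when the list was drawn up. The largest values were those of Vago, 0.67 ± 0.28 (adjusted p = 0.487), and Mtk, 0.52 ± 0.23 (adjusted p = 0.496). CecB had 0.32 ± 0.18 (adjusted p = 0.538 by limma) and GNBP3 0.28 ± 0.18. The value of AttD was 0.00, with a 95% interval of -0.55 to 0.55, and that of Drs -0.06, with an interval of -0.51 to 0.38. The list median was 0.30, against -0.02 for all features. This fit called 0% of all features. Vago and Mtk were among 1022 features with an unadjusted p under 0.05 in the limma fit. The number of features called was 1 without a filter and 3 when the prior followed signal level robustly, and none of the 6 genes was called in any of the 18 alternatives.

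The comparison of translated with total RNA asked how far each transcript was represented on ribosomes within a treatment. In DENR dsRNA cells, GNBP3 was the 1 gene of 6 that passed, at 4.18 and 4.09 in translated RNA, against 4.63 and 4.56 in total RNA. All of these arrays were above the receptor level, and the difference of -0.46 ± 0.13 was a 1.37-fold lower signal on ribosomes (adjusted p = 0.0426 by limma). This call was close to the threshold and was lost under 12 of 19 alternatives. Among these were leaving out the first or second translated array (adjusted p = 0.138 and 0.218) or total RNA array (adjusted p = 0.130 and 0.104) of these cells, and either translated array of GFP dsRNA cells (adjusted p = 0.0691). The other differences were -0.18 ± 0.13 for CecB, -0.18 ± 0.16 for Mtk, 0.20 ± 0.14 for Drs, 0.12 ± 0.17 for AttD and 0.07 ± 0.20 for Vago. Thus 1 of 6 genes was called, lower in translated RNA, where the fit called 15.0% of all features and 5.85% lower. Arrays of the fractions were apart for 3 of 6 genes, CecB, Drs and GNBP3, and for 55.8% of all features.

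In GFP dsRNA cells, Mtk, CecB and Vago were lower in translated than in total RNA, and AttD and Drs did not pass the test. GNBP3 passed as well, but between signals that both lay below the receptor level. Mtk read 3.85 and 3.61 in translated RNA, against 4.53 and 4.32 in total RNA, a difference of -0.70 ± 0.16 (adjusted p = 0.00893 by limma). CecB differed by -0.50 ± 0.13 (adjusted p = 0.0143) and Vago by -0.59 ± 0.20 (adjusted p = 0.0481), both by limma. For all 3 genes the translated arrays lay below the total RNA arrays. GNBP3 differed by -0.73 ± 0.13 (adjusted p = 0.00244 by limma), so no fold is given. Drs lay higher on the translated arrays, without overlap, by 0.26 ± 0.14 (adjusted p = 0.201 by limma). AttD, with both means below the receptor level, differed by 0.12 ± 0.17 (adjusted p = 0.642 by limma).

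Of the 4 genes above the receptor level, 3 were thus lower and 0 higher in GFP dsRNA cells, where the fit called 29.6% of all features, 18.7% higher and 11.0% lower. With array medians centred the calls over all features were 2029 higher and 718 lower, against 1915 and 1125 in the values as deposited. Arrays of the fractions did not overlap for these 4 genes and for 65.2% of all features, and the median of the 4 was -0.55, against -0.04 for all features. In DENR dsRNA cells the medians were -0.05 for the 6 genes and -0.02 for all features. The calls in GFP dsRNA cells rested in part on single arrays. That of Vago was lost under 12 of 19 alternatives, among them leaving out the first or second translated array of these cells (adjusted p = 0.133 and 0.184 by limma) or the first or second total RNA array (adjusted p = 0.0542 and 0.237). Either translated array of DENR dsRNA cells (adjusted p = 0.0553), no filter (adjusted p = 0.0555) and centred medians (adjusted p = 0.0786) were others. CecB and Mtk lost the call without the first total RNA array of GFP dsRNA cells (adjusted p = 0.0517 and 0.0519). CecB also lost it without the first translated array of these cells (adjusted p = 0.0919) and Mtk without the second (adjusted p = 0.0851). GNBP3 was called under all 19 alternatives.

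That Mtk, CecB and Vago passed in GFP dsRNA cells and not in DENR dsRNA cells does not show a difference between the treatments, because the test of that difference is the loading comparison above, which none passed. Each array group enters both a knockdown and a fraction comparison, so that these comparisons share arrays.

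**Figure D3:**
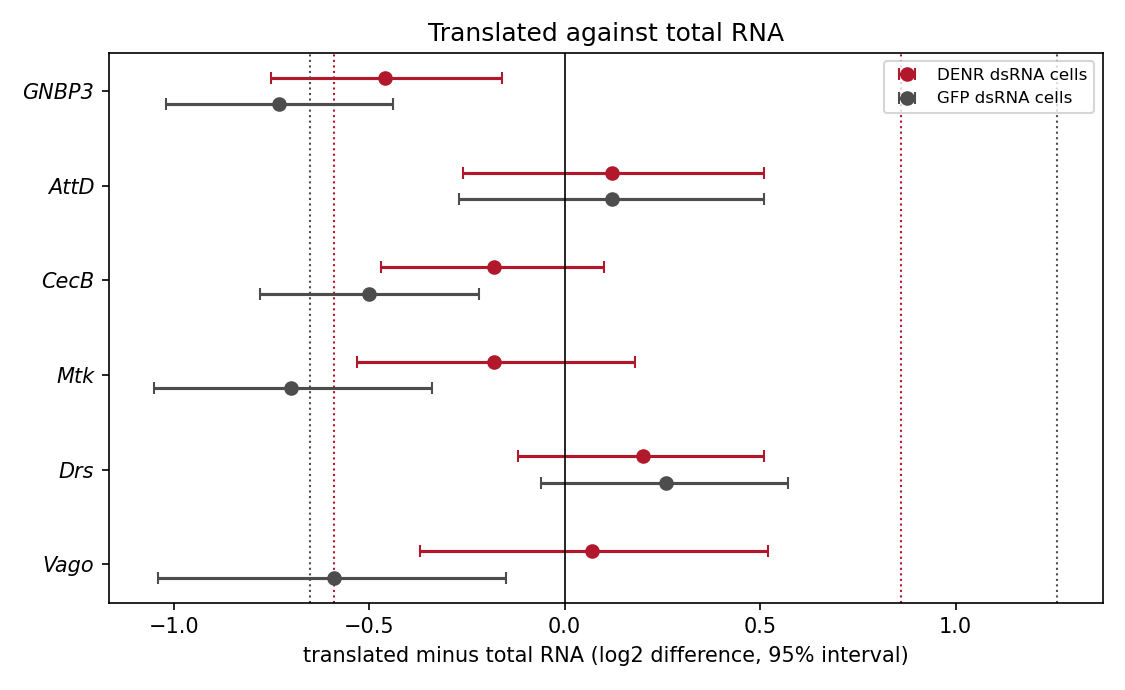
Log2 difference, translated minus total RNA, in DENR and GFP dsRNA cells for 6 immune genes, with 95% intervals from the limma fit. Dotted lines mark the 5th and 95th percentiles of all 10262 features. Values in DENR dsRNA cells run from -0.46 (GNBP3) to 0.20 (Drs), and those in GFP dsRNA cells from -0.73 (GNBP3) to 0.26 (Drs).

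Other genes of the same responses were then examined from lists that were chosen with earlier results of these data known. Counts and adjusted p-values for all of these lists are therefore descriptions. In the limma knockdown tests, 13.2% of all features in translated RNA and 17.6% in total RNA had an unadjusted p under 0.05. Of 39 further antimicrobial peptides and immune effectors, 19 had a probe set of their own and 11 were kept, and 0 of 11 passed the knockdown test by limma in either fraction (0 in translated and 2 in total RNA at an unadjusted p under 0.05). With 1.34% and 1.58% of all features called, a count of 0 in 11 genes is near the background. Their median was 0.03 in translated RNA and -0.16 in total RNA, against 0.00 and 0.02 for all features. DptB, a diptericin and a common readout of IMD, averaged 3.69 in translated RNA of DENR dsRNA cells and 3.52 in GFP dsRNA cells, a difference of 0.17 ± 0.18. In total RNA DptB averaged 3.77 in DENR dsRNA cells and 3.94 in GFP dsRNA cells, a difference of -0.16 ± 0.18. Def, the gene of defensin, differed by 0.07 ± 0.15 and -0.10 ± 0.15 in these fractions, with group means of 2.29 to 2.49, below the receptor level. DptB was chosen for mention after its values were seen, as was Def.

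Among 12 kept recognition and Toll-activating proteins (27 listed), 1 fell in translated RNA and 0 passed in total RNA, against 1.34% and 1.58% of all features called. At an unadjusted p under 0.05 by limma there were 2 of 12 in each fraction. The gene that fell was spz, which codes for the Toll ligand Spätzle, by 1.15 ± 0.17 (adjusted p = 0.0129 by limma). It read 6.68 and 6.87 in translated RNA of DENR dsRNA cells, against 7.85 and 8.00 in GFP dsRNA cells, and its call was lost when any 1 of these 4 arrays was left out (adjusted p = 0.0823 to 0.162). In total RNA spz differed by -0.71 ± 0.17 (adjusted p = 0.0810 by limma). GNBP2, a relative of GNBP3, averaged 6.62 in translated RNA of DENR dsRNA cells and 6.51 in GFP dsRNA cells, and did not pass (0.11 ± 0.14). GNBP2 too was chosen after its values were seen.

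Of 23 kept IMD and Toll signalling genes (30 listed), 0 passed in translated RNA and 1 rose in total RNA, against 0.653% and 0.877% of all features higher. At an unadjusted p under 0.05 by limma there were 1 of 23 in translated RNA and 5 of 23 in total RNA. The gene that rose was Rel, which codes for Relish, at 8.76 and 8.55 in DENR dsRNA cells, against 7.83 and 7.96 in GFP dsRNA cells. The difference of 0.76 ± 0.16 (adjusted p = 0.0476 by limma) lost its call under 12 of 19 alternatives. These were each single array left out except the second total RNA array of DENR dsRNA cells (adjusted p up to 0.237, without the first), the random block for culture (0.0519), medians centred (0.0778), cyclic loess (0.0609), only the arrays compared (0.146) and the replicate block. Of 13 kept antiviral genes (21 listed), 1 rose in translated RNA and 2 in total RNA, against 0.653% and 0.877% of all features. At an unadjusted p under 0.05 by limma there were 4 of 13 in translated RNA and 7 of 13 in total RNA. Nazo, which acts downstream of Sting against viruses, rose in both, by 2.07 ± 0.16 in translated RNA (adjusted p = 0.000229 by limma) and 2.06 ± 0.16 in total RNA (adjusted p = 0.000264), from a total RNA mean in GFP dsRNA cells of 2.59, below the receptor level. Sting, a sensor of cyclic dinucleotides, rose by 1.09 ± 0.20 in total RNA (adjusted p = 0.0267 by limma). Its call was lost with medians centred (adjusted p = 0.0588 by limma), with only the arrays compared (adjusted p = 0.0785), without the first total RNA array of DENR dsRNA cells (adjusted p = 0.146) and without either total RNA array of GFP dsRNA cells (adjusted p = 0.0629 and 0.178). Of 2 kept lysozymes (7 listed), LysX fell by 0.67 ± 0.14 in total RNA (adjusted p = 0.0444 by limma), at 2.90 and 2.86 in DENR dsRNA cells, below the receptor level of that group (3.16), against 3.42 and 3.69 in GFP dsRNA cells. Its call was lost under 11 of 18 alternatives, among them leaving out any 1 of the 8 arrays (adjusted p = 0.0502 to 0.255).

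**Figure D4:**
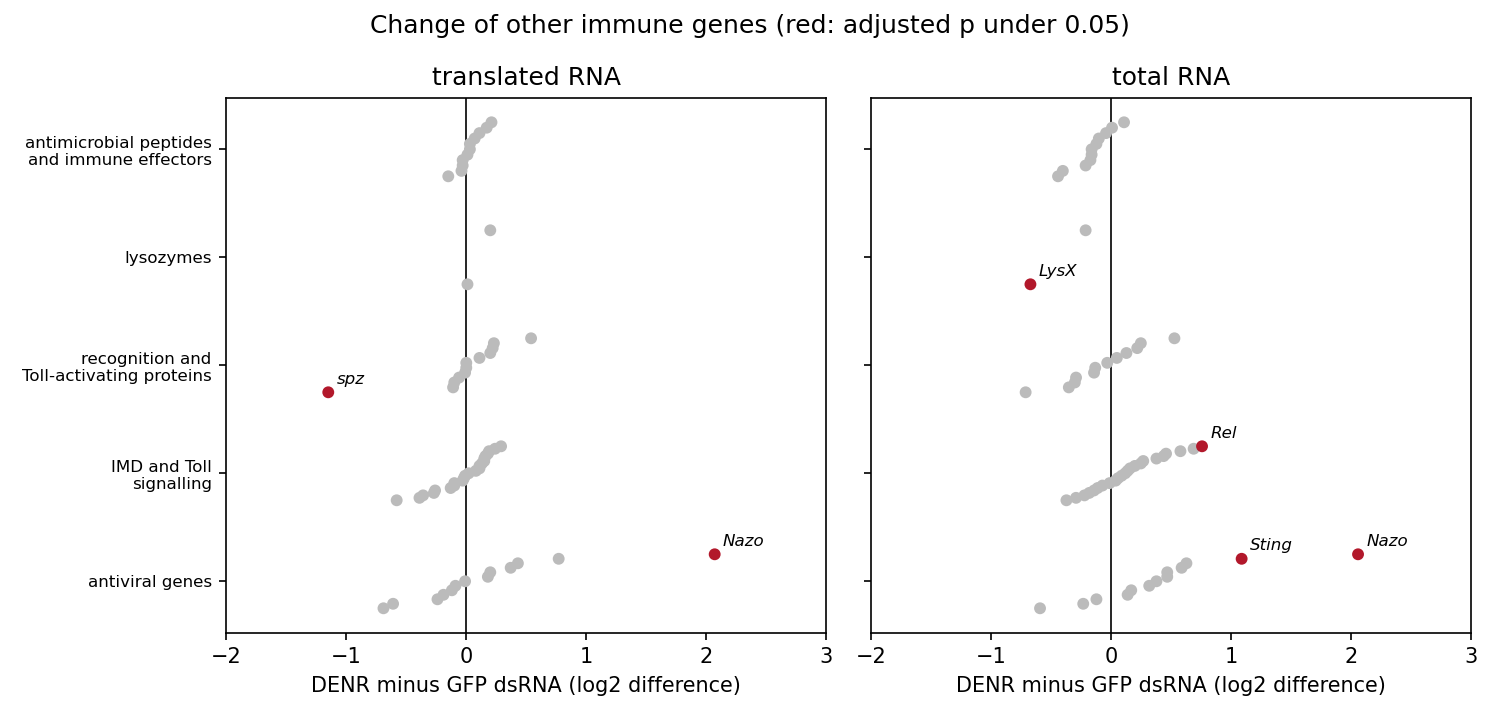
Log2 difference, DENR minus GFP dsRNA, in translated and total RNA for kept genes of 5 immune lists, 1 point per gene. Red points passed the limma test at an adjusted p under 0.05. No point of the 11 antimicrobial peptides and effectors is red, and Nazo is the highest point in both panels (2.07 and 2.06).

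GNBP3 and AttD were the 2 of 6 genes whose group means spanned at least 1 on the log2 scale (2.42 and 1.5). Over the 8 arrays their signals correlated at Pearson r = 0.907, a description of 4 shared groups of arrays. Both genes were known to rise on knockdown when the list was drawn up, so nothing is read from this r. Of 1161 other named genes with a span of at least 1, those most like GNBP3 were Swim, which codes for a secreted Wingless-binding protein (r = 0.985), Charon (r = 0.977) and Cyp4d1, a cytochrome P450 (r = 0.975). Swim averaged 7.41 in translated RNA of DENR dsRNA cells and 4.73 in GFP dsRNA cells, and in total RNA 8.56 and 6.15 in the same order. Swim, Charon and Cyp4d1 all had the order of groups of GNBP3. Total RNA of DENR dsRNA cells was highest and translated RNA of GFP dsRNA cells lowest. As these genes were picked for their likeness over the same arrays, nothing is read from the shared order. Charon spanned 1.01 and Cyp4d1 1.93. The genes most like AttD were ImpE3, an ecdysone-inducible gene (r = 0.983), CG33468 (r = 0.970) and GstT3, a glutathione transferase (r = 0.957). ImpE3 averaged 5.38 in translated RNA of DENR dsRNA cells and 3.87 in GFP dsRNA cells, and in total RNA 5.11 and 3.87 in the same order. As many as 10 genes correlated with GNBP3 at r over 0.9, and 21 did with AttD.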

How the data were processed

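Total RNA and ribosome-bound RNA of S2 cells were hybridised to Affymetrix arrays. The values deposited by the authors are RMA signals, per the submitters' processing notes, which name no version or settings. A log2 scale was inferred from the range of the deposited values (0.83 to 12.88). RMA brings arrays to 1 distribution, so a shift of most transcripts is removed. Of 18952 probe sets, 183 controls were left out. Symbols came from the platform annotation, updated by gene ID from a RefSeq table (13544 of 13647 probe sets with 1 symbol matched, 402 had several and 4720 none). Each gene was read from its brightest probe set, and the brightest 60% of features were kept. No genome or sequence table was used here, so no coordinates or sequences are given.

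A single limma model (limma 3.58.1 in R 4.3.3) with a mean for each of the 4 groups was fitted to the 8 arrays, with 4 residual degrees of freedom and 5.93 from the prior. Tests were two-sided, with Benjamini-Hochberg adjustment over 10262 features. The script was tested on simulated data. The design text calls the arrays of a group biological replicates. Named genes were the 6 genes, DENR, up to 4 called genes of each list and the 3 genes most like each gene whose group means spanned at least 1. Members and lists were chosen with earlier results of these data known. The alternatives comprised other filters and normalizations, all probe sets, another prior, a block for replicate number, a random block for culture, a fit restricted to the arrays of a comparison, and omission of each array. A crossed replicate block was added after seeing the data. Figures used matplotlib 3.10.9.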

Additional observations from a re-analysis of the deposited data

How the results depend on the processing

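Of 559 values of the 6 genes under alternatives, 523 kept their side of the threshold, 32 lost a call, 4 gained a call and 0 changed sign with a call. With the brightest 40% of features, AttD fell out and 1 of 5 genes was called in each knockdown comparison, GNBP3. The rises of GNBP3 and AttD were known when the list was drawn up. Their knockdown calls in all these counts are therefore a description and are not read as support. Leaving out single arrays gave 1 to 2 called genes for the knockdown in translated RNA, 0 to 1 for translated against total RNA in DENR dsRNA cells and 1 to 4 in GFP dsRNA cells. In DENR dsRNA cells the count was 0 with the replicate block, the random block, array medians centred, quantile normalization within each fraction, the trend with a robust prior and only the arrays compared; the cause was not tested.

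The labels give a replicate number and do not say whether arrays of the same number share a culture or a batch. Deviations of same-numbered arrays correlated at 0.274 and 0.379 between treatments and at -0.379 to -0.203 between fractions. The replicate block called 95 features in translated RNA and 116 in total RNA, against 138 and 162, and 1 in loading, against 0. It ended 2 calls of the 6 genes between fractions, GNBP3 in DENR dsRNA cells (adjusted p = 0.0610 by limma) and Vago in GFP dsRNA cells (adjusted p = 0.0612 by limma), and in total RNA on knockdown the calls of Rel (0.0794) and LysX (0.0790). A crossed block called 413 features for the knockdown in translated RNA and 903 in total RNA, 6 in loading and 2376 in DENR dsRNA cells. Features called for the knockdown in total RNA numbered 105 with medians centred, 46 with only the arrays compared and 39 to 497 without single arrays. For translated RNA they numbered 80, 395 and 23 to 212, and 224 with the trend. Of calls in total RNA, 55.6% were rises, against 44.0% with cyclic loess. Translated against total RNA called 1537 features in DENR dsRNA cells, and 609, 687 and 854 without the first and second translated and the second total RNA array of these cells. In GFP dsRNA cells it called 3040, and 1672 and 2026 without the second translated and second total RNA array of these cells. No normalization tried moved the median of all features by over 0.1. The number of arrays and signal near background limit these values.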
